A study of Mus musculus with 4 samples.

Results

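The genes described here are the ubiquitin-specific proteases (USPs) of the mouse, taken as all gene symbols made of Usp and a number, with or without trailing letters. This rule found 56 of the 24421 genes listed in each library, and 43 of the 56 had a mean of at least 1 FPKM (fragments scaled by transcript length and by the mapped fragments of the library) and entered the test. One symbol that the rule takes in, Usp6nl, encodes a regulator of Rab GTPases and is not a protease. RNA was measured in 4 C57BL/6 mice, labelled as females of 8 weeks, each sequenced as 1 library. Animals 139 and 140 were Usp25+/+, called wild type below, and animals 826 and 850 were Usp25-/-, called knockout. All 4 are labelled as having drunk 2.5% dextran sulfate sodium (DSS), which injures the colon lining, for 5 days and plain water for 2 more, before a piece of colon near the anus was taken. Groups therefore differ in genotype alone by their labels and untreated animals were not analysed here. No source used here says which part of Usp25 was deleted.

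USPs are cysteine proteases that cut ubiquitin, a small protein tag, from other proteins or from ubiquitin chains. Removing the tag can spare a protein from the proteasome or end a signal that the chain carries. Usp25 trims chains on the TRAF adaptors of innate immune and interleukin-17 receptors, and Usp28 is its closest relative in the family. Most other members are expressed in nearly every tissue, while Usp18 is induced by interferon.

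The catalytic cysteine of these enzymes lies in a short conserved box, shown here because it defines the family and shows how near Usp25 and Usp28 are. Sequences are the coding strand, 5′ to 3′, from GENCODE vM1 transcripts on mm9, and capitals mark the codon at the place of the catalytic residue.
Usp25: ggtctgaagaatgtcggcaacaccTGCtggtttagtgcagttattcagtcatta
Usp28: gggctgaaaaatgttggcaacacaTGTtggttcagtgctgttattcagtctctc
Usp8: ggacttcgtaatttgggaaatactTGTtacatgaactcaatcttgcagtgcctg
Usp10: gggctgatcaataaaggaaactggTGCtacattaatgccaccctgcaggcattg
Usp18: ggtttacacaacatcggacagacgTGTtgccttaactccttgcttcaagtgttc
Usp39: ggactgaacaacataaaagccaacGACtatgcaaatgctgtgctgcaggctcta

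In Usp25 the box spans exons 5 and 6 of 24, at chr16:77050758-77050805 and chr16:77055399-77055404 on the plus strand. In Usp28 it also spans exons 5 and 6 of 24, at chr9:48812040-48812087 and chr9:48816534-48816539 on the plus strand. Usp25 and Usp28 encode the same 18 of 18 residues there, with 44 of 54 bases alike. Usp8 (chr2:126576813-126576866, plus strand) shares 9 of the 18 residues with Usp25, Usp10 (chr8:122471028-122471066 and chr8:122471601-122471615, plus) shares 9, and Usp18 (chr6:121203788-121203841, plus) shares 7. Usp39 (chr6:72287696-72287743 and chr6:72286474-72286479, minus) encodes aspartate in place of the cysteine, and is known as a splicing factor without protease activity. The search for this box allowed only cysteine or aspartate at the catalytic place. A box of this form was found in 43 of the 50 members with a coding transcript. Of the 43, 42 held a cysteine codon, a count that is limited by the search and is not a finding about the family. Despite the shared residues, no stretch of 31 bases was common to the Usp25 and Usp28 transcripts. Of 1225 pairs of members, 2 shared such a stretch (Usp22 with Usp27x, and Usp9x with Usp9y), and 0 shared one of 100 bases, the labelled read length. The 5 Usp17l genes had no transcript under these symbols, and as near-identical copies their values are uncertain.

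The libraries did not match their labels in tissue or sex. Of 10 colon epithelium markers, 9 had a mean below 1 FPKM, and the goblet cell gene Zg16 and the water channel gene Aqp8 were listed at 0 in every library, while 8 lung epithelium markers summed to 2239, 4376, 5218 and 5230 FPKM in 139, 140, 826 and 850. The Y-linked gene Ddx3y stood at 12.7 to 30.3 FPKM and Xist at 0 to 0.11 FPKM. Library 139 stood apart: 10 neutrophil markers summed to 46008 FPKM there against 800, 2076 and 1287 FPKM in 140, 826 and 850, and 10 interferon-induced genes to 893 against 83.4, 54.0 and 63.4 FPKM. All 20 of these genes were highest in 139. Between 15603 and 20556 genes were above 0 per library, the depth behind the values is unknown, and values below are given by labelled genotype without taking them as measurements of colon or of DSS.

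Usp25 was the USP gene with the largest genotype difference, and was low in both knockout libraries. It stood at 38.5 FPKM in wild-type 139, 16.6 in wild-type 140, 2.65 in knockout 826 and 1.71 in knockout 850. Both wild-type libraries lay above both knockout libraries, and the wild-type libraries themselves lay farther apart than the knockout ones. The mean was 27.5 ± 15.4 FPKM in wild type and 2.18 ± 0.662 FPKM in knockout (SD, n = 2 each), so that 7.91% of the wild-type mean was still listed in knockout. On the log2(FPKM + 1) scale the fold change was -3.07 (SE 0.47), and limma gave it an unadjusted p = 0.00107 (adjusted p = 0.960 among the 12011 tested genes). Limma called 0 of the 12011 genes (0%) at an adjusted p of 0.05, and 0 of the 43 USP genes.

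Among the USP genes Usp25 ranked 1 of 56 by FPKM in 139 and 6 of 56 in 140, and 34 and 38 of 56 in 826 and 850. It made up 8.57% and 5.07% of the summed FPKM of all USP genes in 139 and 140, and 0.782% and 0.503% in 826 and 850. Its higher level in 139 than in 140 ran with the neutrophil and interferon-induced genes, and their part in it was not tested. In bulk tissue, fewer cells of a type and less RNA per cell cannot be told apart. Without 139 the Usp25 log2 fold change was -2.49, and without 140 it was -3.65. The gene lies at chr16:77014314-77117024 on the plus strand of mm9.

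**Figure D1:**
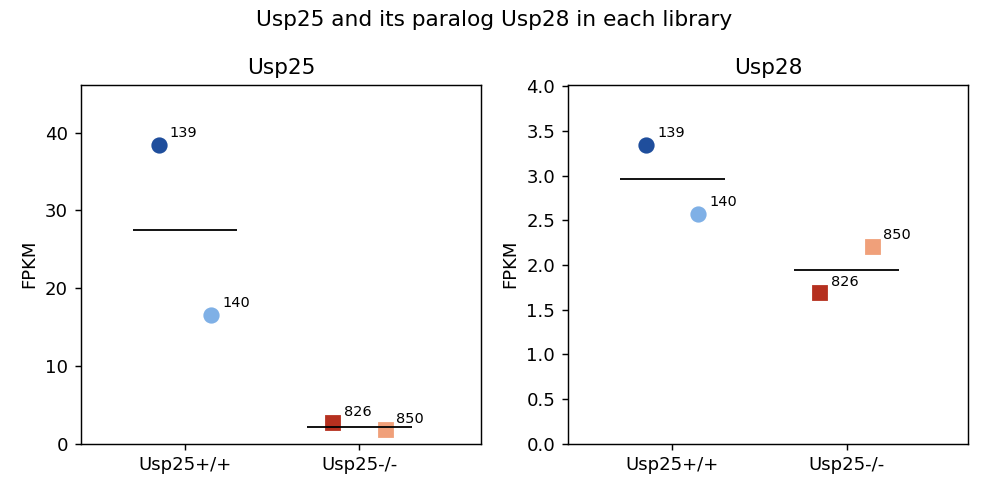
FPKM (linear axes from 0) of Usp25 and Usp28 in the 4 libraries; circles are Usp25+/+, squares Usp25-/-, labels give the animal and the line is the mean of each genotype. Usp25 stands at 38.5 and 16.6 FPKM against 2.65 and 1.71, while Usp28 lies between 1.68 and 3.34 FPKM throughout.

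Usp28, which stabilises MYC and acts in the DNA damage response, was not higher in the knockout libraries. It stood at 3.34 and 2.57 FPKM in wild-type 139 and 140 and at 1.68 and 2.20 FPKM in knockout 826 and 850. Both knockout libraries were below both wild-type libraries. The mean was 2.96 ± 0.545 against 1.94 ± 0.369 FPKM (SD, n = 2 each), and the log2 fold change of -0.43 (SE 0.32) did not pass the test (limma adjusted p = 0.960). The level of Usp25 was 11.5 and 6.46 times that of Usp28 in 139 and 140, and 1.57 and 0.776 times in 826 and 850, both per length. The gene lies at chr9:48793490-48850622 on the plus strand.

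**Figure D2:**
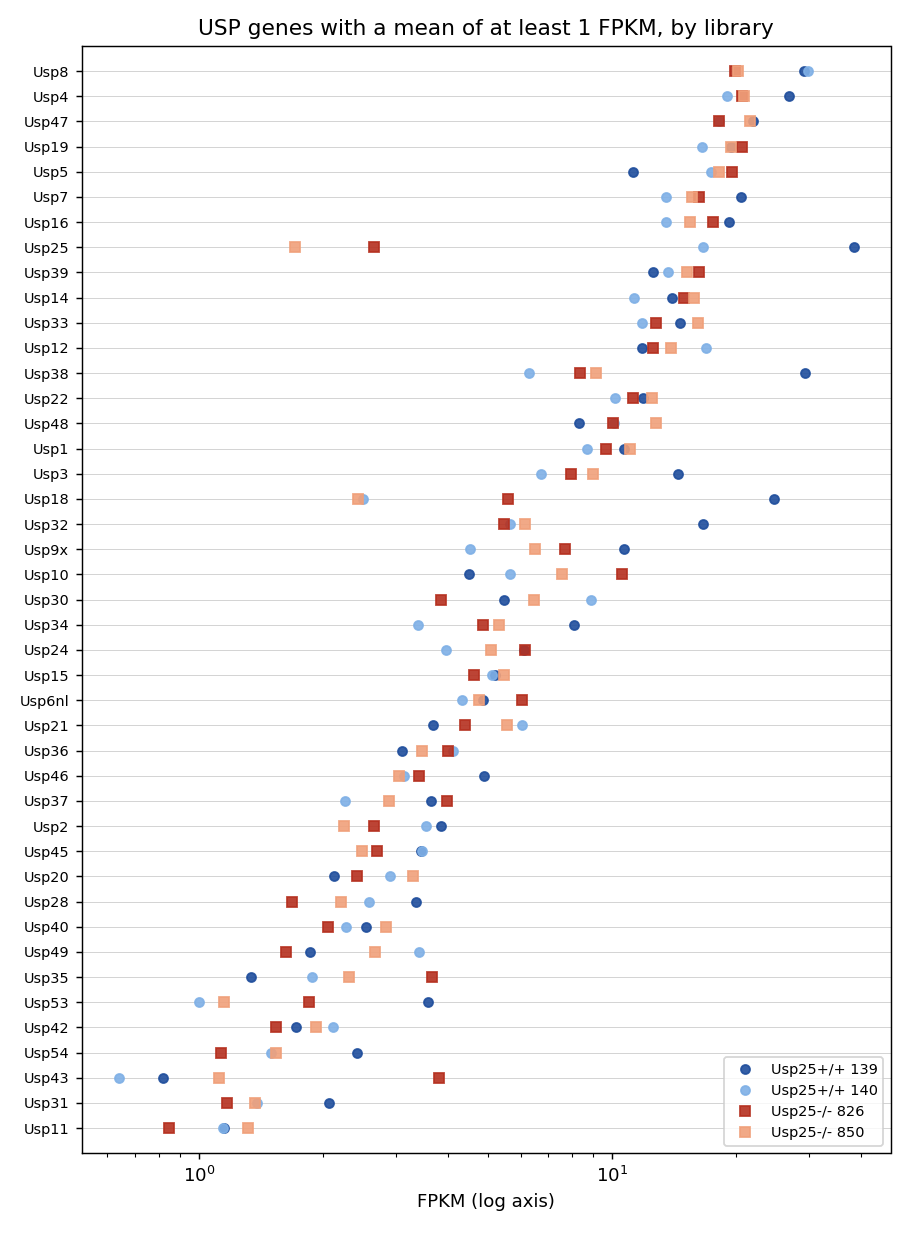
FPKM (log axis) of the 43 tested USP genes, ordered by mean, with 1 symbol per library (circles Usp25+/+, squares Usp25-/-). Most genes show the 4 libraries close together, while Usp25, Usp38, Usp18 and Usp32 have 139 far to the right.

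As a family the USP genes were expressed at moderate levels in every library. Of the 56 genes, 16 had a mean of at least 10 FPKM, 27 had a mean from 1 to 10, 11 were below 1, and 2 (Usp51 and the Y-linked Usp9y) were listed at 0 in all 4 libraries. The highest means were those of Usp8 (24.7 FPKM), Usp4 (21.8), Usp47 (19.9), Usp19 (19.0) and Usp5 (16.6). Usp4, a DUSP-UBL member recruited by the splicing factor SART3, ranked from 2 to 4 in every library, at 26.7, 19.0, 20.6 and 20.9 FPKM in 139, 140, 826 and 850. Usp47, which acts on DNA polymerase beta, stood at 21.9, 18.1, 18.2 and 21.5 FPKM, and Usp19, which has a form anchored in the endoplasmic reticulum, at 19.4, 16.5, 20.6 and 19.4 FPKM. In these 3 genes the genotypes overlapped, and the neighbours in the order overlapped in range.

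The sum over the family was 449 and 328 FPKM in wild-type 139 and 140, and 339 and 340 FPKM in knockout 826 and 850. The knockout libraries lay between the wild-type ones. The mean was 388 ± 85.6 against 339 ± 1.12 FPKM (SD, n = 2 each), a difference of -49.1 FPKM (two-sided exact permutation test, p = 1, smallest possible 0.33). Without 139 the difference was 11.4 FPKM, in the opposite direction. Leaving Usp25 itself out of the sum gave 361 ± 70.1 against 337 ± 1.78 FPKM (SD, n = 2 each).

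Apart from Usp25, genotype differences of the USP genes were mostly small and went both ways. Of the 43 tested genes 20 were higher and 23 lower in knockout, with a median log2 fold change of -0.03, where all 12011 tested genes had a median of 0.03. The family median turned to 0.12 without 139 and to 0.00 without 826, where the median of all tested genes was -0.01 and 0.05. The absolute log2 fold change was below 0.5 in 35 of the 43, or 81.4%, against 74.1% of all tested genes. At a limma unadjusted p of 0.05, 0 USP genes were higher and 1 was lower (Usp25), where 2.11% and 1.01% of all tested genes were. Without 140 this count was 6, where 2593 of all 12011 genes passed, and without 850 it was 2, where 378 did.

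Both knockout libraries were above both wild-type libraries in 6 of the 43 genes, where this held for 19.0% of all tested genes, and below in 6, where it held for 14.7%. These shares of the family, 14.0% each, were near or under those of all genes. With any single library left out, 10 to 22 USP genes were higher without overlap, where 30.3% to 45.8% of all tested genes were, and 8 to 19 lower, where 22.6% to 36.8% were. The count of 22 was that without 139, where the share of all genes was 35.7%. The difference between 139 and 140 was larger than the genotype difference in 30 of the 43 genes, or 69.8%, against 69.1% of all tested genes. The median absolute log2 difference of the family was 0.32 between 139 and 140 and 0.20 between 826 and 850. Over all tested genes these medians were 0.50 and 0.27.

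**Figure D3:**
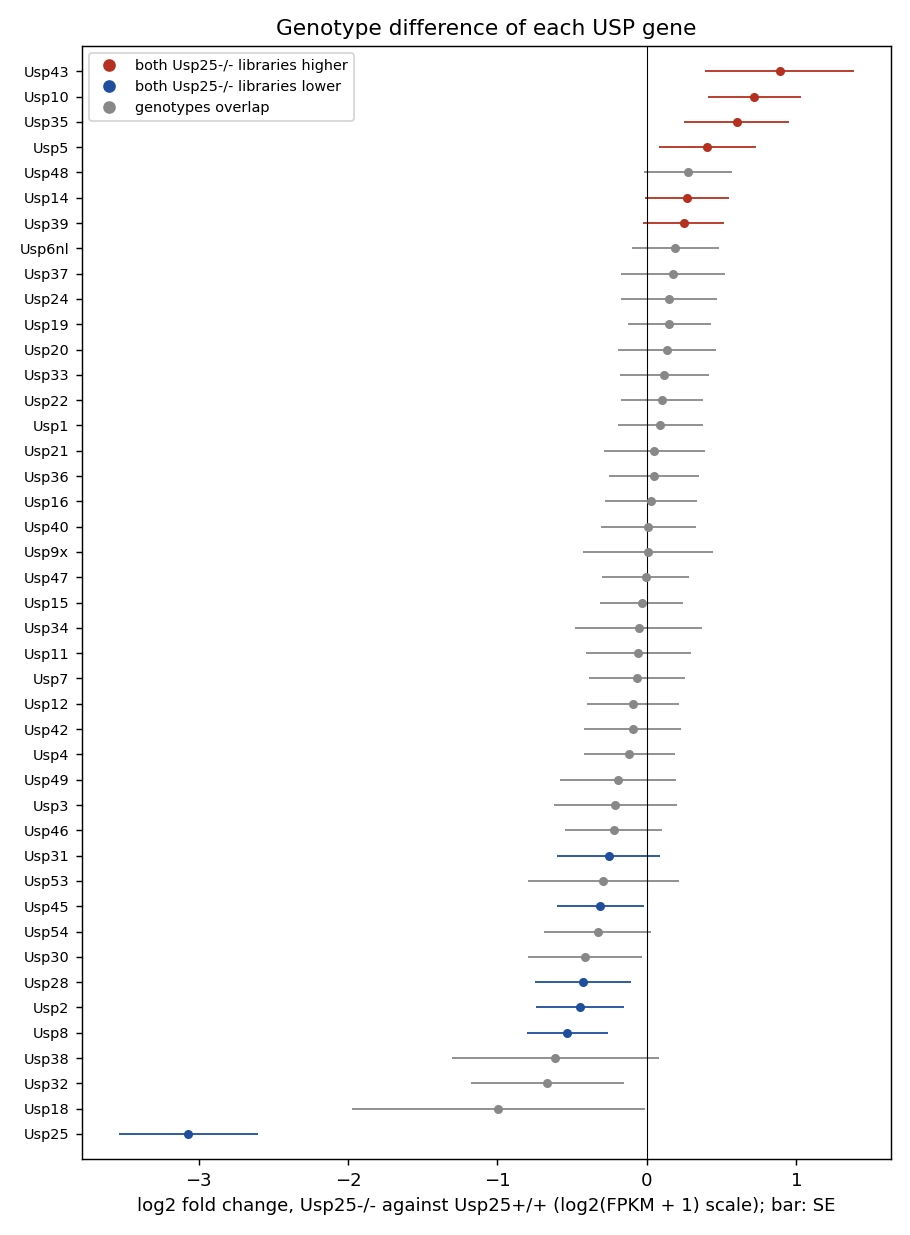
Log2 fold change of Usp25-/- against Usp25+/+ on the log2(FPKM + 1) scale for the 43 tested USP genes, with the standard error from limma as bars; colours mark genes whose genotypes do not overlap. Usp25 stands at -3.07, and the other 42 genes lie between -0.99 and 0.89.

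Usp8, which strips ubiquitin from receptors on endosomes, had levels that were close within each genotype and apart between them. It stood at 29.1 and 29.7 FPKM in wild-type 139 and 140 and at 19.8 and 20.2 FPKM in knockout 826 and 850. The libraries of each genotype lay together, and 139 did not stand out. The means were 29.4 ± 0.418 and 20.0 ± 0.250 FPKM (SD, n = 2 each), and the log2 fold change was -0.53 (SE 0.27), which did not pass the test (limma unadjusted p = 0.104, adjusted p = 0.960). It lay between -0.55 and -0.52 whichever library was left out. The gene (chr2:126533064-126585033, plus strand) overlaps Usp50 on the minus strand, listed at 0.282 FPKM in 139 and at 0 elsewhere. Reads of the overlap cannot be told apart without strand. Other annotated genes overlap Usp2, Usp14, Usp16, Usp31, Usp34, Usp37 and Usp45 on the opposite strand, and the same limit holds for their values. Usp10 and Usp49 each overlap a gene on their own strand, where strand would not separate the reads either.

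The other members below in both knockout libraries were Usp2, Usp45 and Usp31, beside Usp25, Usp28 and Usp8. Usp2, a gene under circadian control, stood at 3.85 and 3.54 FPKM in wild type and at 2.65 and 2.25 FPKM in knockout (log2 fold change -0.45, SE 0.29). Usp45 was level at 3.44 and 3.47 FPKM in wild type and stood at 2.70 and 2.48 FPKM in knockout (log2 fold change -0.31, SE 0.29). Usp31 barely separated the genotypes, with 2.06 and 1.38 against 1.17 and 1.36 FPKM. Its log2 fold change of -0.25 (SE 0.34) was -0.07 without 139 and -0.44 without 140.

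The members above in both knockout libraries were Usp43, Usp10, Usp35, Usp5, Usp14 and Usp39, none of which passed the test. Usp10, which acts on p53 and binds the stress granule protein G3BP1, stood at 4.50 and 5.66 FPKM in wild-type 139 and 140 and at 10.6 and 7.57 FPKM in knockout 826 and 850. The genotypes did not overlap, with 826 highest. Its log2 fold change was 0.72 (SE 0.31; limma unadjusted p = 0.0664, adjusted p = 0.960), and between 0.50 and 0.94 with any library left out. G3bp1, named here only as the partner of Usp10, stood at 40.0 and 34.0 against 50.7 and 41.8 FPKM (log2 fold change 0.31, SE 0.30). Of the 14 tested USP cofactor genes, which include G3bp1, 3 were higher and 6 lower in knockout without overlap. The shares over all tested genes were 19.0% and 14.7%.

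Usp43 stood at 0.816 and 0.638 FPKM in wild type and at 3.82 and 1.12 FPKM in knockout 826 and 850. Library 826 was far above the other 3, and the log2 fold change of 0.89 (SE 0.50) was 0.29 without it and 1.48 without 850. Of the 10 colon epithelium markers 3 were highest in 826 and 5 in 139, and of the 8 lung epithelium markers 1 was highest in 826. The 5 colon markers highest in 139 did not exceed 0.279 FPKM there, so their order rests on values near 0. Fcgbp, among the 3 highest in 826, stood at 0.177 FPKM there. The colon marker Krt20, a keratin gene picked after its values were seen, stood at 4.31, 3.11, 52.4 and 7.35 FPKM in 139, 140, 826 and 850, and the part of these markers in the Usp43 value was not tested. Usp35 was likewise highest in 826, at 1.33 and 1.88 against 3.66 and 2.31 FPKM. Its log2 fold change was 0.60 (SE 0.35), and 0.35 without 826.

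Both ubiquitin-recycling enzymes that were tested, Usp5 and Usp14, were above in knockout. Usp5, which takes apart free ubiquitin chains, stood at 11.2 and 17.3 FPKM in wild type and at 19.5 and 18.2 FPKM in knockout. Library 139 was lowest and 140 lay close to 850, and the log2 fold change of 0.41 (SE 0.32) was 0.12 without 139 and 0.70 without 140. Usp14, which sits on the proteasome, stood at 13.9 and 11.3 against 14.9 and 15.8 FPKM (log2 fold change 0.27, SE 0.28), with 139 near 826. Without 139 that fold change was 0.41, and without 140 it was 0.13. Usp39, whose box held aspartate in place of the cysteine, stood at 12.5 and 13.6 against 16.2 and 15.2 FPKM (log2 fold change 0.25, SE 0.27).

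Several members were highest in wild-type 139 by a wide margin. Usp18, Usp25, Usp32 and Usp38 were at least 2-fold above every other library there, Usp25 being high in 140 too, 4 of the 43 genes, where 6.92% of all tested genes were. In 826 this held for 1 USP gene, Usp43, where it held for 2.66% of all tested genes, and in 140 and 850 for 0, where it held for 0.683% and 0.608%.

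Usp18, which removes the ubiquitin-like tag ISG15 and dampens the type I interferon receptor, stood at 24.7 FPKM in wild-type 139, 2.49 in wild-type 140, 5.61 in knockout 826 and 2.42 in knockout 850. Animal 140 was level with 850 and below 826, so that the genotypes overlapped. The log2 fold change of -0.99 (SE 0.98) became 0.45 without 139, in the opposite direction, and -2.43 without 140. Isg15 itself stood at 154, 15.4, 15.4 and 14.6 FPKM in the same order. All 7 tested genes of the ISG15 system were highest in 139, and their part in the Usp18 value was not tested.

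Usp38 stood at 29.4 FPKM in 139 and at 6.30, 8.35 and 9.14 FPKM in 140, 826 and 850, with 140 lowest. Its log2 fold change of -0.61 (SE 0.69) turned to 0.42 without 139. Usp32, a membrane-associated member, stood at 16.6 FPKM in 139 and at 5.65, 5.46 and 6.16 FPKM in the others, and its fold change of -0.67 (SE 0.51) turned to 0.03 without 139. Usp53, associated with tight junctions, stood at 3.59 FPKM in 139 and at 0.997, 1.85 and 1.15 FPKM in the others, and turned from -0.29 (SE 0.50) to 0.31. Usp3, an H2A deubiquitinase, stood at 14.5 FPKM in 139 and at 6.74, 7.97 and 8.97 FPKM in the others, and turned from -0.21 (SE 0.41) to 0.29.

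Library 139 was the highest of the 4 in 17 of the 43 tested USP genes, where it was highest in 29.9% of all tested genes. It was the lowest in 9 of the 43, where it was lowest in 39.4% of all genes. Library 140 was the lowest in 18 of the 43, where it was lowest in 23.5% of all genes. It was the highest in 8 of the 43, where it was highest in 27.2% of all genes. Of the 43 fold changes, 13 changed sign without 139, 11 without 140, 10 without 826 and 4 without 850. Sign counts were not made over all tested genes, so no background share can be set beside them. In 17 genes the sign held whichever library was left out. These were Usp5, Usp6nl, Usp10, Usp14, Usp19, Usp35, Usp39, Usp43 and Usp48 among the higher, and Usp2, Usp8, Usp25, Usp28, Usp30, Usp31, Usp45 and Usp54 among the lower.

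**Figure D4:**
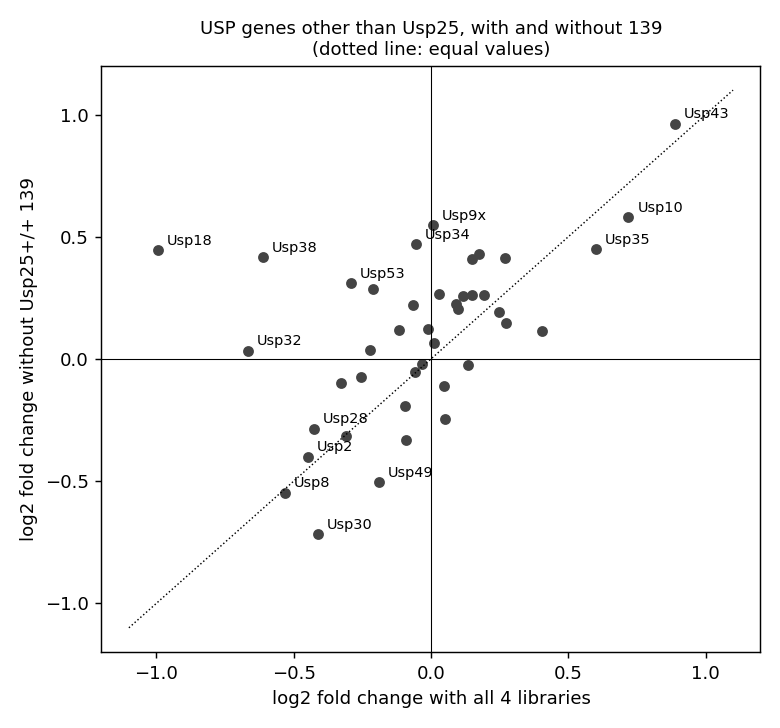
Log2 fold change of Usp25-/- against Usp25+/+ with all 4 libraries (horizontal axis) and without Usp25+/+ 139 (vertical axis) for the 42 tested USP genes other than Usp25, on the log2(FPKM + 1) scale. Usp18 moves from -0.99 to 0.45 and Usp38 from -0.61 to 0.42, while Usp8 stays on the dotted line of equal values at -0.53 and -0.55.

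The chromatin members differed little between the genotypes. Of the 7 tested, 4 were higher and 3 lower, between -0.21 and 0.27 on the log2 scale. Usp22, the enzyme of the SAGA coactivator, stood at 11.9, 10.2, 11.2 and 12.5 FPKM in 139, 140, 826 and 850, with the genotypes overlapping. Usp16, which acts on histone H2A, stood at 19.2, 13.5, 17.5 and 15.4 FPKM, with both knockout libraries between the wild-type ones. Usp48, a nuclear enzyme, stood at 8.31, 10.1, 10.0 and 12.7 FPKM (log2 fold change 0.27, SE 0.29). Usp36, a nucleolar enzyme, lay between 3.11 and 4.12 FPKM, its relative Usp42 between 1.54 and 2.11 FPKM, and Usp49, which acts on histone H2B, between 1.63 and 3.40 FPKM.

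Members that work with the cofactor UAF1 (gene Wdr48) were also close between genotypes. Usp1, which acts on FANCD2 and PCNA in DNA repair, stood at 10.7, 8.71, 9.67 and 11.1 FPKM in 139, 140, 826 and 850 (log2 fold change 0.09, SE 0.28). Usp12 stood at 11.8, 16.8, 12.6 and 13.9 FPKM and its relative Usp46 at 4.90, 3.13, 3.41 and 3.05 FPKM. The order of the libraries was opposed in the wild-type pair, with Usp12 lowest and Usp46 highest in 139. Wdr48 stood at 10.5, 7.26, 7.50 and 7.09 FPKM, and the second cofactor gene Wdr20 at 6.45 and 6.43 against 4.91 and 4.24 FPKM (log2 fold change -0.42, SE 0.27).

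Usp7, which acts on MDM2 and p53, stood at 20.5, 13.5, 16.2 and 15.6 FPKM in 139, 140, 826 and 850. Usp15, a DUSP-UBL member acting on TGF-beta receptors, kept between 4.62 and 5.46 FPKM, and Usp11, of the same subfamily, between 0.844 and 1.31 FPKM. Their genotypes overlapped in all 3. Usp30, which is anchored in the outer mitochondrial membrane and opposes mitophagy, stood at 5.47 and 8.90 FPKM in wild type and at 3.85 and 6.46 FPKM in knockout. Here 139 lay below 850, and the log2 fold change of -0.41 (SE 0.38) was -0.72 without 139 and -0.11 without 140.

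Among the trafficking enzymes, the X-linked Usp9x stood at 10.7, 4.52, 7.70 and 6.49 FPKM in 139, 140, 826 and 850, with both knockout libraries inside the wild-type range. Usp33 and Usp20, which bind the VHL protein, lay between 11.8 and 16.1 and between 2.12 and 3.30 FPKM. Usp21 lay between 3.68 and 6.06 FPKM. In each of these genes the genotypes overlapped, as in the cell cycle member Usp37, which acts on cyclin A (2.26 to 3.98 FPKM), in Usp24 (3.97 to 6.14 FPKM), in Usp34, which acts on axin (3.40 to 8.10 FPKM), in Usp40 (2.05 to 2.84 FPKM), in Usp54 (1.13 to 2.42 FPKM) and in Usp6nl (4.32 to 6.06 FPKM).

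The 13 members under a mean of 1 FPKM were not tested. Usp27x, the X-linked relative of Usp22, was level at 0.532, 0.536, 0.534 and 0.505 FPKM in 139, 140, 826 and 850. Usp44 was listed at 0.227 and 0.0966 FPKM in wild type and at 0 in both knockout libraries. Usp13, the relative of Usp5, was listed at 0.0892 and 0.0819 FPKM in 139 and 850 and at 0 in 140 and 826. The testis gene Usp26 and the imprinted Usp29 did not exceed 0.191 FPKM in any library. Of the Usp17l genes, Usp17ld had the highest value, 0.610 FPKM in 826, followed by Usp17la at 0.567 FPKM in 139, and Usp17lb, Usp17lc and Usp17le were each listed above 0 in 1 library. Usp9y was listed at 0 although other Y-linked genes were present, and no reason is recorded.

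Genes that supply or assist the USPs went both ways, and 0 of them passed the test. Of the 7 ubiquitin and E1 enzyme genes 4 were higher and 3 lower in knockout, with a median log2 fold change of 0.36. Rps27a, a ubiquitin fusion gene, stood at 448 and 464 against 815 and 605 FPKM (0.62, SE 0.37). Uba7, the E1 enzyme for ISG15, stood at 24.4 and 12.1 against 8.07 and 10.8 FPKM (-0.82, SE 0.42). Of 14 tested cofactor genes 5 were higher and 9 lower, with a median of -0.15. Beside Wdr20, the largest were Atxn7l1, a relative of a SAGA subunit, at 17.8 and 12.8 against 10.8 and 8.30 FPKM (-0.62, SE 0.32), and Stam, an endosomal sorting partner of Usp8, at 7.49 and 7.27 against 12.5 and 9.21 FPKM (0.49, SE 0.29).

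In the ISG15 system all 7 genes were lower, with a median log2 fold change of -0.92, and 139 was highest in each. Of the 7, 2 were lower in knockout without overlap, where 14.7% of all tested genes were lower without overlap. Its largest differences were in Isg15 (-1.66, SE 1.04), the interferon signalling gene Stat2 (-1.08, SE 0.49) and the ISG15-conjugating enzyme gene Ube2l6 (-1.07, SE 0.61). Of 10 tested genes for reported Usp25 substrates and partners 3 were higher and 7 lower, with a median of -0.26. Syk, a kinase of immune receptors, stood at 128 and 64.8 against 41.4 and 51.4 FPKM (-0.97, SE 0.43), Traf3 at 8.98 and 3.31 against 3.13 and 3.30 FPKM (-0.64, SE 0.47) and Traf2 at 6.93 and 7.16 against 6.39 and 4.43 FPKM (-0.34, SE 0.30). Traf3 therefore rested on 139, with the other 3 libraries level.

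Of 6 genes for reported Usp28 substrates and partners 3 were higher and 3 lower, with a median log2 fold change of -0.02. Notch1 stood at 10.4 and 5.53 against 2.26 and 4.87 FPKM (-0.98, SE 0.45), Myc at 6.04 and 11.4 against 14.3 and 12.9 FPKM (0.64, SE 0.37) and the checkpoint kinase gene Chek2 at 2.84 and 5.99 against 5.84 and 7.52 FPKM (0.56, SE 0.39). The USP-domain genes outside the symbol rule were Uspl1 (0.53, SE 0.44), Pan2 (-0.58, SE 0.35) and Cyld (-0.17, SE 0.47). Pan2, of a poly(A)-trimming complex, was lower without overlap, at 7.48 and 4.51 against 4.18 and 3.02 FPKM. Cyld, which cuts ubiquitin chains in NF-kB signalling, stood at 10.2 FPKM in 139 and at 3.99, 4.80 and 6.60 FPKM in 140, 826 and 850.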

How the data were processed

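Poly(A) RNA of 4 animals was sequenced as paired reads of 100 bases without strand, per the labels' protocols. Trimming with cutadapt and alignment tools TopHat2 2.1.1 and Cufflinks are listed, on mm9, per the submitters' processing notes. The deposited values were taken as FPKM made by the authors, since those notes list Cufflinks; no source used here gives the annotation or filters. FPKM carries no depth, so no counting interval is given. The genotype test was two-sided, from limma 3.58.1 (lmFit, then eBayes with trend) under R 4.3.3. It ran on log2(FPKM + 1), a scale that understates the change of low genes, over the 12011 of 24421 genes whose mean reached 1 FPKM, adjusted by Benjamini-Hochberg at 0.05. The fit was also run on simulated data with independent noise and no library set apart. Those runs therefore do not show how the fit behaves when 1 library stands apart. The labels give separate animals, n = 2 each, and animal numbers pair no samples. Members, gene lists, named genes and tests were chosen with earlier results of these data known. All members are accounted for, and of each list the 3 tested genes with the largest absolute log2 fold change are named, except 1 that is not reported here. Other pseudocounts, filters, scalings, a variance model and leaving out each library were tried. Positions are from GENCODE vM1 on mm9.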

Additional observations from a re-analysis of the deposited data

How the results depend on the processing

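No paired analysis was possible because the labels link no animals across the genotypes. No gene passed the adjusted threshold under any of 12 alternatives (pseudocounts of 0.1 and 0.5, no filter, a mean of at least 5 FPKM, 3 scalings, no trend, and leaving out each library), against 108 to 2593 genes at an unadjusted p of 0.05. The log2 fold change of Usp25 kept its direction in all 12, between -3.65 and -2.49 with a library left out, and so did that of Usp28 in the 11 that tested it. The count of USP genes at an unadjusted p under 0.05 was 2 of 56 without the filter, where 899 of all 24421 genes passed. It was 1 to 6 of 43 with a library left out, where 108 to 2593 of all 12011 genes passed. The 6 and the 2593 were both those without 140. Those fits leave 1 library in a genotype, so no conclusion about the family is drawn from these counts. USP genes without overlap numbered 10 to 22 higher (30.3% to 45.8% of all genes) and 8 to 19 lower (22.6% to 36.8%) with a library left out, and 2 of 25 tested were lower at a mean of at least 5 FPKM (15.1% of all genes). The family median ranged from -0.11 to 0.12 with a library left out, and that of all tested genes from -0.01 to 0.10. The summed FPKM difference ranged from -110 to 11.4, turning to 11.4 without 139, and the cause was not tested. Of the 43 fold changes, 38 kept their sign under the 3 scalings, all but those of Usp16, Usp36, Usp40, Usp47 and Usp9x. This was not counted over all tested genes. With n = 2 per genotype and unknown depth, small differences cannot be resolved.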
